A study of Caenorhabditis elegans with 15 samples.

Results

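Wild-type worms given allantoin were set against vehicle-treated worms of the eat-2 mutant, a drug proposed to mimic diet restriction beside a genetic form of it. The 6 arrays were chosen by their labels, 3 of N2 wild type with allantoin in 2% DMSO (N2 allantoin) and 3 of the eat-2 mutant with 2% DMSO alone (eat-2 vehicle), out of 15 arrays in 5 groups. The other groups were N2 with rapamycin, eat-2 with rapamycin, and N2 with DMSO alone (N2 vehicle), again 3 arrays each. The study's methods give DA465 as the eat-2 strain. Worms were moved at the L4 stage, the last larval stage, to plates with drug or vehicle at 20 °C, and RNA of whole worms was taken 72 h later. No eat-2 worms on allantoin were among the 15 arrays, so strain and drug cannot be told apart in any difference between N2 allantoin and eat-2 vehicle. The sources do not say whether the 3 arrays of a group came from separate cultures, and the tests then measure only the spread between these arrays, which may be technical.

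The eat-2 gene encodes a nicotinic acetylcholine receptor subunit that drives the pumping of the pharynx, and mutants eat less, grow thin and live long. In well-fed worms the intestine stores fat, makes yolk proteins for the oocytes and secretes peptidases and lysozymes that digest bacteria. When food is short, worms mobilise fat through lysosomal lipases and mitochondrial beta-oxidation, and they make fewer eggs. Allantoin is a product of purine breakdown.

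The values were log2 intensities after robust multi-array averaging (RMA), which puts all arrays on one scale, and a difference of 1 stands for a 2-fold change. A probe set was said to pass when its Benjamini-Hochberg adjusted p in limma was below 0.05 over the 22548 probe sets tested. Between N2 allantoin and eat-2 vehicle, 4839 probe sets passed (21.5%), of which 2692 were higher in N2 allantoin (11.9%) and 2147 lower (9.52%). Most of these differences were small, and 2853 of the 4839 were under 1.5-fold. Past 2-fold the balance was the other way, with 229 higher and 352 lower in N2 allantoin, and past 4-fold 16 were higher and 47 lower. With the threshold of the study's methods, an unadjusted p below 0.05 and over 2-fold, 616 probe sets were called (2.73%), 231 higher (1.02%) and 385 lower (1.71%). The mean correlation of each array with the others of its group ran from 0.995 to 0.9968 in N2 allantoin and from 0.9914 to 0.995 in eat-2 vehicle. The median SD of a probe set was 0.0949 in N2 allantoin, 0.111 in eat-2 vehicle and 0.21 in N2 vehicle. For 8890 probe sets (39.4%) the values of the 6 arrays did not overlap between the groups. The eat-2 probe set itself was dim and did not separate the strains, at 5.39, 5.29 and 5.41 in N2 allantoin and 5.47, 5.22 and 5.37 in eat-2 vehicle.

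Counted once per gene, 12.9% of 17118 genes were higher and 9.8% lower in N2 allantoin, 22.7% in all, and the lists of genes below are read against these shares. Fold changes past 2 and passing were seen in 1.16% of genes (higher) and 1.72% (lower). Of 25 list counts of 1 to 3 members, 21 moved by over 1.5 times when some single array was left out, and their values then lay between 0 and 4.

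Several of the genes furthest above in N2 allantoin serve fat, yolk and folate. The acyltransferase-like gene oac-32 read 9.80, 9.84 and 9.47 on the N2 allantoin arrays and 5.40, 5.66 and 5.45 on the eat-2 vehicle arrays. It was bright on every N2 allantoin array and dim on every eat-2 vehicle array, an 18.4-fold difference (log2 4.20 ± 0.12 SE, limma adjusted p = 3.26e-05). The unnamed gene T22B7.7 showed the same split, with 9.73, 9.65 and 9.48 in N2 allantoin against 5.74, 5.54 and 5.55 in eat-2 vehicle. Its difference was 16.1-fold (adjusted p = 1.93e-05). A folate transporter gene, folt-2, read 9.97, 10.08 and 11.0002 in N2 allantoin and 7.32, 7.38 and 7.05 in eat-2 vehicle, 8.58-fold higher (adjusted p = 0.000693). In a fit over all 15 arrays folt-2 did not pass (limma adjusted p = 0.0794). The stearoyl-CoA desaturase fat-7, which makes oleic acid and falls when worms are starved, read 9.19, 9.22 and 8.88 in N2 allantoin against 6.24, 5.92 and 6.01 in eat-2 vehicle. The groups lay far apart, by 8.22-fold (log2 3.04 ± 0.13 SE, adjusted p = 8.41e-05). The yolk protein gene vit-1 stood at 12.92, 12.83 and 12.48 in N2 allantoin and at 10.58, 9.19 and 9.82 in eat-2 vehicle, 7.37-fold higher with a wider spread in the mutant (log2 2.88 ± 0.32 SE, adjusted p = 0.00172). The infection response gene irg-8 was 5.58-fold higher, at 11.12, 11.19 and 11.27 in N2 allantoin and 8.45, 9.32 and 8.37 in eat-2 vehicle. A further gene, pud-3, read 12.34, 12.44 and 10.74 in N2 allantoin and 10.57, 8.36 and 9.18 in eat-2 vehicle, and its lowest N2 allantoin array was only just above its highest eat-2 vehicle array. It passed with a wide error (log2 2.47 ± 0.64 SE, adjusted p = 0.0335), and did not pass without N2 allantoin array 1 or 2 or without eat-2 vehicle array 2 or 3 (limma adjusted p = 0.124, 0.122, 0.0533 and 0.108).

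Genes of fat use, water transport and defence were among those furthest below in N2 allantoin. The gene acs-2, an acyl-CoA synthetase that feeds fatty acids into mitochondrial beta-oxidation and is a standard marker of fasting, read 8.48, 8.36 and 8.64 in N2 allantoin and 12.09, 12.43 and 12.11 in eat-2 vehicle. The lowest eat-2 vehicle array was far above the highest N2 allantoin array (log2 -3.71 ± 0.12 SE, adjusted p = 3.8e-05), and a second probe set of acs-2 was 7.1-fold lower. The aquaglyceroporin gene aqp-1, whose product passes water and glycerol through the intestinal membrane, read 8.31, 8.36 and 8.21 in N2 allantoin against 11.54, 11.82 and 11.36 in eat-2 vehicle, 9.71-fold lower (adjusted p = 6.79e-05). An invertebrate lysozyme, ilys-3, read 11.69, 11.71 and 9.70 in N2 allantoin and 14.19, 14.11 and 13.86 in eat-2 vehicle. All 3 mutant arrays were higher, but the third N2 allantoin array lay well below the other two (log2 -3.02 ± 0.51 SE, adjusted p = 0.00715). The same array stood apart, upward, for the antimicrobial peptide gene cnc-6, at 5.99, 6.25 and 8.17 in N2 allantoin against 9.05, 11.46 and 9.38 in eat-2 vehicle (log2 -3.16 ± 0.77 SE, adjusted p = 0.0265). The cnc-6 call was lost without N2 allantoin array 1 or 2 or eat-2 vehicle array 3 (adjusted p = 0.104, 0.101 and 0.0611). Alcohol dehydrogenase adh-1, a gene chosen after its values were seen, was lower too, with means of 11.24 in N2 allantoin and 13.78 in eat-2 vehicle (log2 -2.54, adjusted p = 9.2e-05).

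**Figure D1:**
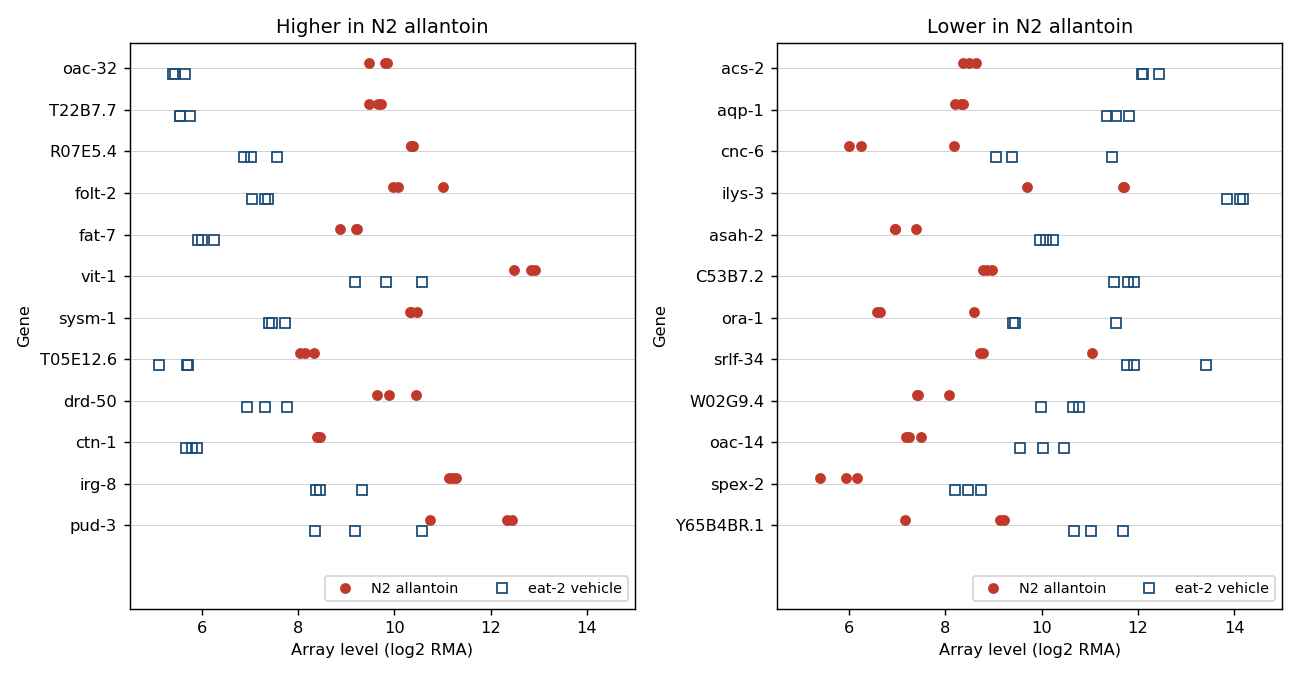
Log2 RMA intensity (x axis) of the 12 genes furthest above and the 12 furthest below in N2 allantoin, 1 point per array, with N2 allantoin as filled circles and eat-2 vehicle as open squares. For oac-32 and acs-2 the groups lie over 3 log2 units apart, while the points of cnc-6 and pud-3 are spread within each group.

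Genes of fat metabolism did not move one way. Of 31 genes that respond to fasting, 5 were higher and 13 lower in N2 allantoin, and lipases, metallothioneins and acs-2 were among the lower. The list was not split into genes that fasting raises and genes that it lowers, such as fat-7, which was among the higher. These counts therefore do not stand for opposite responses to fasting. Those 5 became 2 without eat-2 vehicle array 3. Of 8 lysosomal lipases, which release fatty acids from stored fat, 4 were lower and none was higher. Of these, lipl-1 read 9.42, 9.39 and 9.01 in N2 allantoin and 11.22, 10.56 and 10.81 in eat-2 vehicle, 3.02-fold lower (adjusted p = 0.00195), and lipl-3 read 6.28, 6.45 and 6.06 in N2 allantoin and 8.06, 8.65 and 7.15 in eat-2 vehicle (log2 -1.69, adjusted p = 0.0143). The groups were fully apart for each gene, though lipl-3 did not pass without N2 allantoin array 1 (adjusted p = 0.0581). The others that passed, lipl-2 and lipl-5, differed by -1.26 and -1.23 on the log2 scale, while lipl-4, lipl-6, lipl-7 and lipl-8 lay between -0.08 and 0.16 and did not pass. Another gene of beta-oxidation, hacd-1, was lower (log2 -1.55, adjusted p = 0.000369). Against these, 19 of the 78 beta-oxidation genes were higher and 8 lower, and acdh-1, an acyl-CoA dehydrogenase chosen after its values were seen, was higher (log2 1.41). The beta-oxidation counts were 10 and 3 without N2 allantoin array 1, the same without array 2, and 11 and 4 without eat-2 vehicle array 3. With eat-2 vehicle array 1 left out the lower count was also 4. Among 37 genes of fatty acid synthesis, desaturation and elongation 6 were higher and 7 lower, counts that were 3 each without N2 allantoin array 1 or 2, and 3 and 4 without eat-2 vehicle array 3. Without eat-2 vehicle array 1 the lower count was 3, and after cyclic loess 3 were higher and 9 lower. The desaturases split: fat-7 was higher, fat-3 was lower (log2 -1.15, adjusted p = 0.00306) and fat-2 was lower (log2 -0.59, adjusted p = 0.0251). The fat-2 call was lost when either of N2 allantoin arrays 1 and 2 or of eat-2 vehicle arrays 1 and 3 was left out (adjusted p from 0.0712 to 0.0977). For fat-6, the close relative of fat-7, the difference was -0.31 (adjusted p = 0.078), and for fat-5 it was 0.12 (adjusted p = 0.45).

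Among the yolk proteins vit-1 stood alone. Of 5 vitellogenins only vit-1 passed, and vit-2, vit-4, vit-5 and vit-6 differed by between -0.21 and 0.11. Several of their probe sets can bind more than 1 of these closely related genes. The mean of the 5 genes per array was 13.75 to 13.88 in N2 allantoin and 13.02 to 13.52 in eat-2 vehicle. The highest value on any array was 14.86, and whether differences are compressed at such levels was not tested.

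Digestive and defence genes of the gut were lower in N2 allantoin more than they were higher. Of 27 aspartic and cathepsin peptidases, which digest protein in the gut lumen and lysosomes, 15 were lower (55.6%) and 1 higher, with a median log2 difference of -0.77 against 0.01 over all genes. The aspartic peptidase asp-17 read 5.58, 5.79 and 5.46 in N2 allantoin and 7.78, 7.66 and 8.41 in eat-2 vehicle, and asp-12 read 7.83, 7.96 and 8.30 in N2 allantoin and 10.60, 10.27 and 10.91 in eat-2 vehicle. Each group kept to its own range, with asp-17 5.05-fold lower (adjusted p = 0.000681) and asp-12 5.91-fold lower (adjusted p = 0.000429). The cathepsin B-like gene cpr-4 read 11.35, 11.53 and 11.19 in N2 allantoin and 13.41, 13.53 and 13.33 in eat-2 vehicle, 4.18-fold lower (adjusted p = 0.000135).

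Lysozymes, which break bacterial cell walls, were lower in 6 of 16 cases (3 without N2 allantoin array 1) and higher in 2. Those 2 were lys-1 and lys-2. For lys-2 the arrays read 11.97, 11.91 and 11.58 in N2 allantoin and 9.59, 9.28 and 9.34 in eat-2 vehicle, 5.34-fold higher (adjusted p = 0.000159). Among the lower ones, lys-4 read 11.36, 11.30 and 11.46 in N2 allantoin against 13.23, 12.62 and 13.05 in eat-2 vehicle, and lys-7 read 12.16, 12.12 and 12.59 in N2 allantoin and 13.93, 13.61 and 13.94 in eat-2 vehicle. Their folds were 3.02 (adjusted p = 0.00102) and 2.9 (adjusted p = 0.00117). Members of the family were thus on opposite sides. Of 70 other gut defence genes 18 were lower and 6 higher. The saposin-like gene spp-8, of a family that opens bacterial membranes, read 10.53, 10.62 and 10.41 in N2 allantoin and 12.47, 12.31 and 12.41 in eat-2 vehicle, 3.68-fold lower, and spp-12 was 5.93-fold lower. C-type lectins followed with 31 lower and 10 higher of 220, and epidermal antimicrobial peptides with 6 lower and 1 higher of 31, the 6 becoming 3 without N2 allantoin array 1 or 2 or eat-2 vehicle array 3.

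Among 23 sphingolipid enzymes 4 were higher and 5 lower, and the 3 that exceeded 2-fold were all lower and encode enzymes that break sphingolipids down. The 4 were 1 or 2 when any array but eat-2 vehicle array 1 was left out. The acid ceramidase gene asah-1 read 9.96, 10.11 and 10.0033 in N2 allantoin and 12.92, 12.48 and 12.53 in eat-2 vehicle, 6.15-fold lower (adjusted p = 9.66e-05). Its relative asah-2 was 7.97-fold lower, at 6.95, 6.95 and 7.38 in N2 allantoin and 10.24, 9.96 and 10.08 in eat-2 vehicle. The acid sphingomyelinase gene asm-2 was lower as well (log2 -1.34, adjusted p = 0.00376), while asm-3 did not pass (log2 -0.98, adjusted p = 0.0965).

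Stress genes were lower more than they were higher. Of 12 small heat shock proteins, chaperones that hold unfolded proteins, 6 were lower and none higher. The gene hsp-12.3 read 8.16, 8.29 and 8.51 in N2 allantoin and 10.36, 11.0994 and 10.78 in eat-2 vehicle, 5.38-fold lower (adjusted p = 0.000517), and hsp-16.2 read 8.69, 8.64 and 8.27 in N2 allantoin and 10.20, 10.27 and 9.96 in eat-2 vehicle (log2 -1.61, adjusted p = 0.000691). Both metallothioneins, which bind heavy metals, were lower, mtl-2 with a log2 difference of -2.01 and mtl-1 by 4.27-fold at 9.98, 10.08 and 10.70 in N2 allantoin and 11.81, 12.77 and 12.46 in eat-2 vehicle. The group of superoxide dismutases, catalases and metallothioneins held 4 lower of 16 and none higher, against 3 each way after median centring. Of 9 large chaperones of the HSP70, HSP90 and HSP60 families 1 was higher and 1 lower. Detoxification enzymes went both ways: 8 higher and 16 lower of 73 cytochrome P450s, 14 higher and 14 lower of 64 UDP-glucuronosyltransferases, and 9 higher and 6 lower of 45 glutathione S-transferases. Single arrays moved some of these counts: without N2 allantoin array 2 there were 9 higher and 8 lower UDP-glucuronosyltransferases and 3 lower glutathione S-transferases, without N2 allantoin array 1 there were 7 lower UDP-glucuronosyltransferases, and without eat-2 vehicle array 3 there were 9 each way. The omega-class transferase gene gsto-1 read 8.31, 8.35 and 8.52 in N2 allantoin and 6.54, 6.49 and 6.28 in eat-2 vehicle, 3.88-fold higher (adjusted p = 0.000122).

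Of the 41 lists, that of nervous system signals had the largest share of passing members. Of 62 neuropeptide and neuropeptide-processing genes 42 were lower in N2 allantoin (67.7%) and none was higher, with a median of -0.56. They comprised 17 of 25 FMRFamide-like peptide genes, 20 of 30 other neuropeptide genes and 5 of 7 processing enzymes. The differences were mostly under 2-fold, and 4 exceeded it. The prohormone convertase egl-3, which cuts neuropeptide precursors, read 9.08, 9.14 and 9.19 in N2 allantoin and 9.78, 9.88 and 10.08 in eat-2 vehicle, a gap wider than the spread of either group (log2 -0.77 ± 0.09 SE, adjusted p = 0.00213). The peptide gene nlp-39 differed more, at 10.13, 10.19 and 9.61 in N2 allantoin and 11.70, 11.59 and 11.68 in eat-2 vehicle (log2 -1.68 ± 0.15 SE, adjusted p = 0.000869), and nlp-47 read 9.21, 9.40 and 9.38 in N2 allantoin and 10.26, 10.95 and 10.39 in eat-2 vehicle. In a fit over all 15 arrays 13 of the 62 passed and egl-3 and nlp-39 did not (adjusted p = 0.0662 and 0.0677). Of 22 pan-neuronal genes 4 were lower and 1 higher, and the 4 were 2 without N2 allantoin array 1 or 2 or eat-2 vehicle array 1 or 3. Insulin-like peptides gave 4 lower of 24 and none higher, and the 4 were 1 or 2 when any array but eat-2 vehicle array 1 was left out. The nicotinic receptor subunits, the family of eat-2, gave 3 lower and 1 higher of 33. The 3 were 1 without N2 allantoin array 1 or 2 or eat-2 vehicle array 3, and the 1 was 0 when any array but N2 allantoin array 3 was left out.

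In whole worms, fewer cells of a type and less RNA per cell cannot be told apart, and the tissues themselves gave different counts. Pharyngeal muscle genes were lower in 6 of 10 cases and higher in none, with myo-2, the pharyngeal myosin, at 6.85, 7.08 and 7.32 in N2 allantoin and 7.75, 7.82 and 7.89 in eat-2 vehicle (log2 -0.74, adjusted p = 0.00688). Body wall muscle genes were higher in 7 and lower in 1 of 31. The troponin genes unc-27 and tnt-2 were among the higher (log2 1.06 and 0.96), the 1 lower was the body wall myosin myo-3 (log2 -1.08, adjusted p = 0.00971), and the major myosin unc-54 did not pass (log2 0.23, adjusted p = 0.407). Intestinal genes were lower in 8 and higher in 2 of 24. The gut esterase ges-1 (log2 -0.82) and the vacuolar ATPase subunit vha-6 (log2 -1.09) were lower, the gut actin act-5 was higher (log2 0.50, adjusted p = 0.0157), and elt-2, the main transcription factor gene of the gut, did not pass (log2 -0.18, adjusted p = 0.409). The cuticle-like abu and pqn genes of the pharynx were lower in 14 and higher in 3 of 66, and the 14 were 6 without N2 allantoin array 2 and 8 without N2 allantoin array 1 or eat-2 vehicle array 1 or 3. In the fit over all 15 arrays 1 of the 10 pharyngeal muscle genes passed, and myo-2 did not (adjusted p = 0.113).

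Genes of eggs, germ cells and dividing cells were higher in N2 allantoin, by small amounts. Of 40 eggshell and oocyte genes 21 were higher (52.5%) and none lower, and the medians for this list and for 37 genes of germ granules and meiosis (16 higher, none lower) were both 0.33. The yolk receptor rme-2, which takes yolk into oocytes, read 12.65, 12.71 and 12.77 in N2 allantoin and 12.30, 11.98 and 12.24 in eat-2 vehicle (log2 0.53, adjusted p = 0.00999). The meiotic gene him-5 read 9.18, 9.13 and 8.97 in N2 allantoin and 8.29, 8.16 and 8.19 in eat-2 vehicle (log2 0.88, adjusted p = 0.000975). The groups did not overlap for either gene. Of 116 cell cycle and DNA replication genes 42 were higher and 1 lower, with the phosphatase cdc-25.3 at 11.17, 11.14 and 10.97 in N2 allantoin and 10.29, 10.06 and 10.21 in eat-2 vehicle (log2 0.91, adjusted p = 0.00125). The 1 lower was cki-1, an inhibitor of the cell cycle (log2 -0.88, adjusted p = 0.0078). Embryonic regulators were higher in 10 of 30 cases, and the early embryonic gene pes-10 was the furthest of them, at 8.20, 8.23 and 8.11 in N2 allantoin and 7.12, 6.71 and 7.06 in eat-2 vehicle (log2 1.22, adjusted p = 0.00104).

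The count of eggshell and oocyte genes depended on scaling and on single arrays, with 10 after cyclic loess, when 2 became lower, 8 without N2 allantoin array 1 or array 2, and 11 without eat-2 vehicle array 3. That of cell cycle genes was 26 after cyclic loess, 21 and 19 without N2 allantoin arrays 1 and 2, and 27 without eat-2 vehicle array 3. The genes of germ granules and meiosis numbered 9 without N2 allantoin array 1, and the embryonic regulators 6 without N2 allantoin array 2. In the fit over all 15 arrays 2 eggshell and oocyte genes and 13 cell cycle genes passed, and rme-2 did not (adjusted p = 0.0814). Sperm genes passed in 3 (higher) and 1 (lower) of 78 cases, although their median was -0.55 and their mean level ran from 6.82 to 7.35 in N2 allantoin and from 7.37 to 8.41 in eat-2 vehicle. The part of sperm content in the other differences was not tested.

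Collagens of the cuticle were higher in 38 of 146 cases (26%) and lower in 1, and 10 were more than 2-fold higher. The adult collagen col-19 read 9.76, 9.9966 and 9.54 in N2 allantoin and 8.21, 7.81 and 7.58 in eat-2 vehicle, 3.73-fold higher (adjusted p = 0.000978). For col-80 the gap was of like size and the arrays closer, at 12.29, 12.33 and 12.33 in N2 allantoin and 10.59, 10.71 and 10.46 in eat-2 vehicle (3.31-fold, adjusted p = 0.0001). Other genes of moulting gave 8 higher and 1 lower of 84, and hedgehog-related genes, many of them active in the epidermis, 6 higher of 54 and none lower. The 38 collagens were 22 and 25 without N2 allantoin arrays 1 and 2, 23 without eat-2 vehicle array 3, and 10 in the fit over all 15 arrays. The 8 moulting genes were 4 or 5 when N2 allantoin array 1 or 2 or eat-2 vehicle array 1 or 3 was left out.

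**Figure D2:**
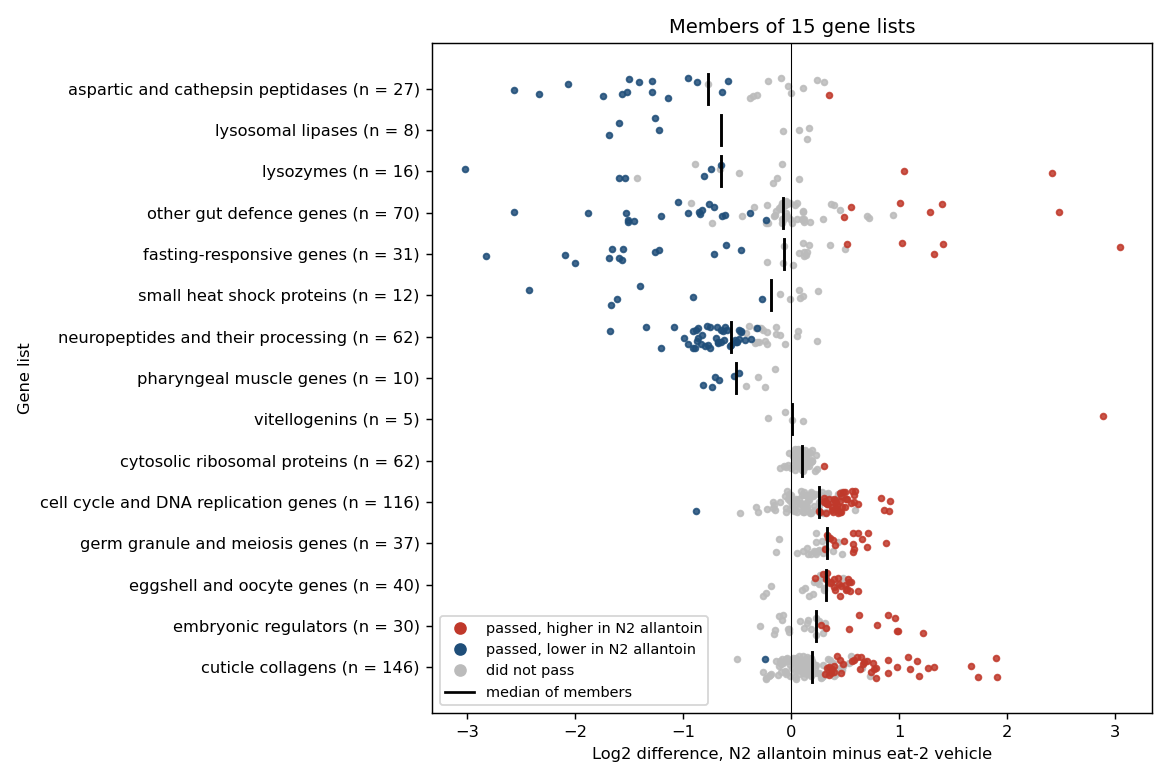
Log2 difference, N2 allantoin minus eat-2 vehicle (x axis), of every measured member of 15 gene lists, with members that passed and were higher in red, passed and lower in blue, the others in grey, and the list median as a black bar. Neuropeptide genes and peptidases lie to the left of 0, with medians of -0.56 and -0.77, and the eggshell, meiosis and cell cycle lists lie a little to the right.

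Genes tied to the longevity pathways of diet restriction passed in a share close to that of all genes in either direction (22.7%), but only as lower. Of 21 such genes 5 were lower (23.8%, against 9.8% of all genes) and none higher. The 5 were 1 to 3 when any array but eat-2 vehicle array 2 was left out. They were 2 after median centring, 7 after cyclic loess and 0 in the fit over all 15 arrays. Of the 5, fmo-2, a flavin monooxygenase induced by fasting, had a log2 difference of -1.05 (adjusted p = 0.0318). The others were the neuropeptide gene nlp-7 (log2 -0.69), the transcription factor genes hlh-30 (log2 -0.61) and daf-16 (log2 -0.30), and cup-4 (log2 -0.30). The insulin and TOR pathway held 3 higher and 2 lower of 28, and the TOR kinase gene let-363 itself did not pass (log2 0.16, adjusted p = 0.213). Without N2 allantoin array 1 the insulin and TOR counts were 1 and 0, the 2 lower were also 0 without N2 allantoin array 2 or 3 or eat-2 vehicle array 3 and after median centring, and 1 without eat-2 vehicle array 1. Autophagy genes gave 3 each way of 26, and 1 higher and 6 lower after cyclic loess. The 3 higher were 1 without N2 allantoin array 1 or 2 or eat-2 vehicle array 3. The TGF-beta pathway, which sets body size, gave 5 lower and none higher of 19 (3 without N2 allantoin array 1 or 2 or eat-2 vehicle array 3), led by the receptor partner sma-10 (log2 -1.42, adjusted p = 0.000429). In purine metabolism, from which allantoin derives, 2 of 15 genes were higher and 3 lower. The salvage enzyme gene hprt-1 was the tightest, at 11.38, 11.40 and 11.37 in N2 allantoin and 10.56, 10.54 and 10.47 in eat-2 vehicle (log2 0.86 ± 0.06 SE, adjusted p = 0.000482), whereas the xanthine dehydrogenase gene xdh-1 did not pass (log2 -0.25, adjusted p = 0.286). Of 62 cytosolic ribosomal protein genes 1 was higher and none lower, and of 44 respiratory chain genes 6 were higher and 4 lower. The respiratory chain counts were 3 and 2 without N2 allantoin array 1, the 4 were 2 without N2 allantoin array 2 or eat-2 vehicle array 1 or 3, and cyclic loess gave 3 higher and 10 lower. The fmo-2 call was lost without N2 allantoin array 1 or eat-2 vehicle array 1 or 3 (adjusted p from 0.0557 to 0.111), and that of hlh-30 without any single array but eat-2 vehicle array 1 (adjusted p from 0.0513 to 0.119).

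The N2 and eat-2 arrays on rapamycin gave a strain difference measured on other arrays, with none in common with the comparison above. The N2 rapamycin arrays stood apart from the rest, with a mean correlation of 0.9229 to 0.9279 with N2 allantoin, 0.9394 to 0.9426 with eat-2 vehicle and 0.9601 to 0.9626 with N2 vehicle, against 0.995 to 0.9961 among themselves. On rapamycin 13070 probe sets passed between N2 and eat-2 (58%), 5827 higher in N2 (25.8%) and 7243 lower (32.1%). Of the 4839 that passed between N2 allantoin and eat-2 vehicle, 660 passed in the same direction on rapamycin (13.6% of the 4839 and 5.05% of the 13070), 3063 in the opposite direction (63.3% of the 4839 and 23.4% of the 13070) and 1116 did not pass. The numbers in both were 414 in the same direction and 1563 in the opposite without N2 allantoin array 1, 414 and 1584 without array 2, and 434 and 1905 without eat-2 vehicle array 3. Of the 352 lower by over 2-fold 136 passed in the same direction and 153 in the opposite, and of the 229 higher by over 2-fold the numbers were 31 and 148.

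**Figure D3:**
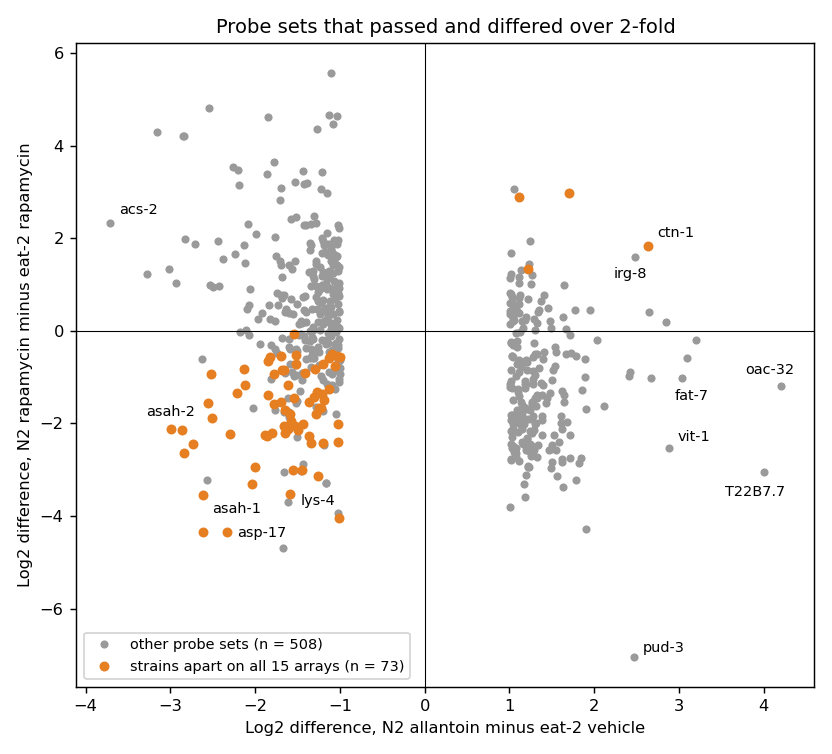
Log2 difference N2 allantoin minus eat-2 vehicle (x axis) against N2 rapamycin minus eat-2 rapamycin (y axis) for the 581 probe sets that passed and exceeded 2-fold on the x axis. Orange marks 73 probe sets whose 9 N2 arrays and 6 eat-2 arrays did not overlap, nearly all at the lower left, and grey the other 508.

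Genes of eggs, dividing cells and nerves passed mostly the other way. All but 1 of the 21 higher eggshell and oocyte genes, 41 of the 42 higher cell cycle genes, all 10 higher embryonic regulators and 12 of the 16 higher genes of germ granules and meiosis passed with the opposite sign on rapamycin. So did 39 of the 42 lower neuropeptide genes and all 6 lower pharyngeal muscle genes. For egl-3 the difference was 1.44 on rapamycin, and for cdc-25.3 it was -1.90. Among 78 sperm genes 62 were higher and 5 lower in N2 on rapamycin, with a median of 2.26 against -0.55 between N2 allantoin and eat-2 vehicle. Few of them had passed there. Of the 3 higher in N2 allantoin 1 passed in the same direction on rapamycin and 1 in the opposite, and the 1 lower passed in the same. The part of sperm content in the opposite signs was not tested. Cuticle collagens were mixed, with 8 of 38 in the same direction and 19 in the opposite.

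For gut digestive genes more of the passing members had the same direction. Of the 8 aspartic peptidase genes lower in N2 allantoin 7 were also lower in N2 on rapamycin. The 7 lower cathepsin and other peptidases differed: 1 was also lower, 4 passed as higher and 2 did not pass. The lipases lipl-1, lipl-2 and lipl-5, the lysozymes lys-4 and lys-7, and spp-8, asah-1, asah-2 and asm-2 were lower in N2 in both. For asah-1 the difference on rapamycin was -3.55 (adjusted p = 1.1e-05), for lys-4 -3.53 and for asp-17 -4.34. In contrast, acs-2, aqp-1 and cpr-4 were higher in N2 on rapamycin, by 2.33, 1.22 and 0.91.

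Over all 15 arrays, 295 probe sets had N2 and eat-2 values that did not overlap (1.31%), 79 with N2 higher (0.35%) and 216 with eat-2 higher (0.958%). The 73 of them that passed by over 2-fold between N2 allantoin and eat-2 vehicle were 4 higher and 69 lower. Among the lower were asah-1, asah-2, asm-2, asp-12, asp-17, lys-4, lys-7, spp-8, lipl-1, lipl-2, lipl-5 and mtl-2, for which the strains kept apart whatever the drug. The gene ctn-1, an alpha-catulin, was split within itself: 1 probe set was higher in N2 allantoin (8.40, 8.45 and 8.42 in N2 allantoin and 5.68, 5.79 and 5.90 in eat-2 vehicle), and 2 others were lower (log2 -2.13 and -1.68), and all 3 separated the strains on the 15 arrays. Probe sets of one gene disagreed in this way for 3 of 443 genes with more than 1 passing probe set.

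The level of asah-1 averaged 10.02 in N2 allantoin, 12.64 in eat-2 vehicle, 8.92 in N2 rapamycin, 12.47 in eat-2 rapamycin and 10.18 in N2 vehicle. The level of asp-17 averaged 5.61 in N2 allantoin, 7.95 in eat-2 vehicle, 4.92 in N2 rapamycin, 9.26 in eat-2 rapamycin and 5.23 in N2 vehicle. Both genes were thus low in all N2 groups and high in both eat-2 groups. The pattern of vit-1 was another, with 12.74 in N2 allantoin, 9.86 in eat-2 vehicle, 9.48 in N2 rapamycin, 12.01 in eat-2 rapamycin and 10.88 in N2 vehicle. There eat-2 on rapamycin lay near N2 on allantoin, and the means of the other groups were lower. The N2 vehicle arrays of vit-1 were spread wide, from 8.79 to 12.40. Likewise fat-7 averaged 9.10 in N2 allantoin, 6.06 in eat-2 vehicle, 7.04 in N2 rapamycin, 8.07 in eat-2 rapamycin and 6.65 in N2 vehicle, with 1 eat-2 rapamycin array at 7.0007 within the N2 rapamycin range. The order was turned round for aqp-1, which averaged 8.29 in N2 allantoin, 11.57 in eat-2 vehicle, 9.98 in N2 rapamycin, 8.76 in eat-2 rapamycin and 10.01 in N2 vehicle.

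**Figure D4:**
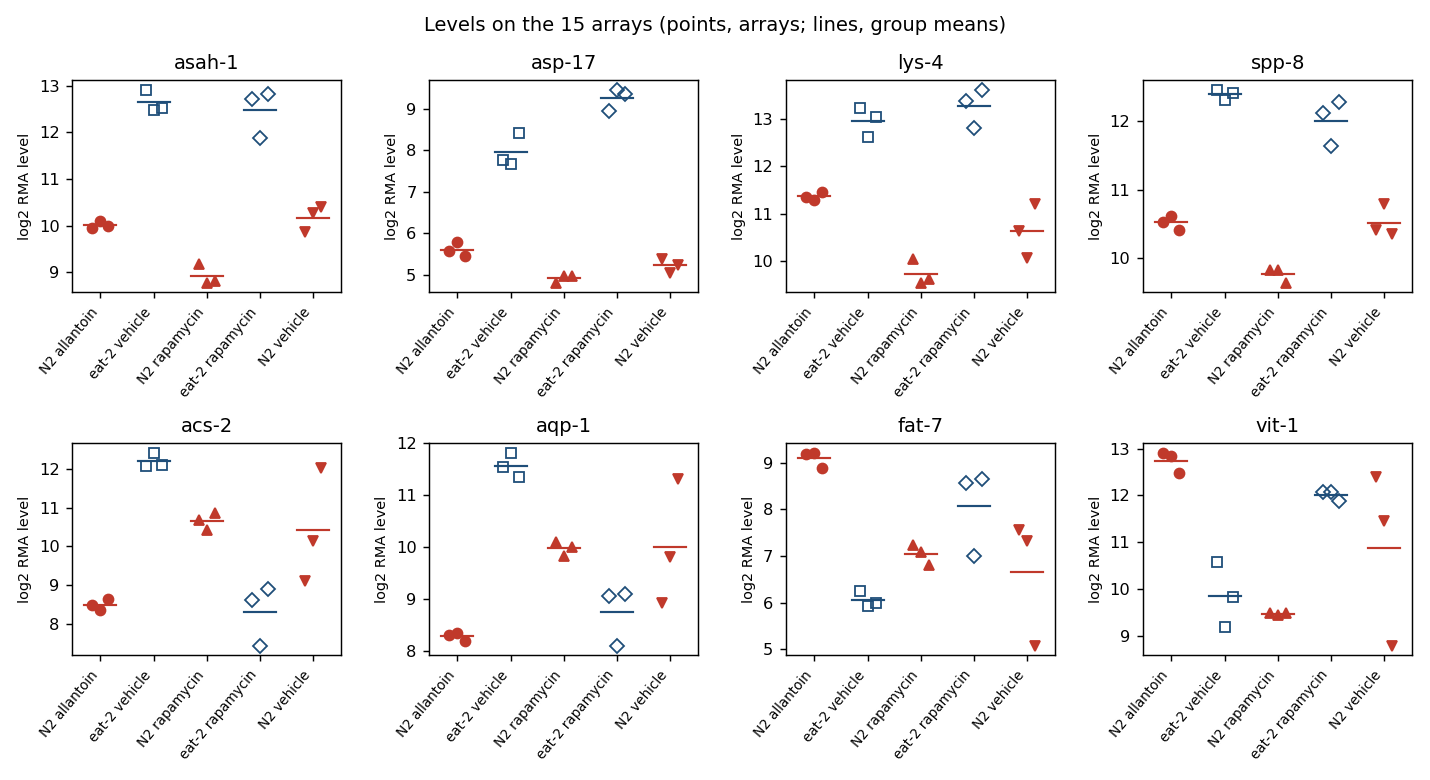
Log2 RMA intensity (y axis) of 8 genes on all 15 arrays, 1 point per array, in the order N2 allantoin, eat-2 vehicle, N2 rapamycin, eat-2 rapamycin and N2 vehicle. For asah-1, asp-17, lys-4 and spp-8 both eat-2 groups sit above all N2 groups, and for acs-2, aqp-1, fat-7 and vit-1 the eat-2 rapamycin mean lies nearer to N2 allantoin than to eat-2 vehicle.

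Across the 4839 passing probe sets, the eat-2 rapamycin mean was nearer to N2 allantoin than to eat-2 vehicle in 3549 (73.3%), and in 384 (66.1%) of the 581 past 2-fold. The eat-2 rapamycin arrays correlated at 0.9855 to 0.9928 with the N2 allantoin arrays and at 0.9795 to 0.9851 with the eat-2 vehicle arrays. The N2 vehicle mean lay between N2 allantoin and eat-2 vehicle in 56.8% of the 4839. It was nearer to N2 allantoin in 25.7% of them, and nearer to eat-2 vehicle in the rest. Single arrays placed differently. Taken alone, N2 vehicle array 1 was nearer to N2 allantoin in 64.7%, array 2 in 22.5% and array 3 in 29.9%. Array 1 of N2 vehicle correlated at 0.994 with the N2 allantoin arrays and at 0.9715 with the other arrays of its own group, and the comparison of N2 allantoin with eat-2 vehicle does not use it.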

How the data were processed

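RNA of whole worms was hybridised to 15 Affymetrix C. elegans arrays. Per the labels and the submitters' processing notes, the authors made the deposited log2 intensity values with Affymetrix Expression Console by RMA. RMA (background correction, quantile normalization and probe summary) gives probe intensities, not probe set values, one distribution over all arrays. Changes in total RNA therefore cannot be seen. Array medians over the probe sets tested still differed, from 6.81 to 6.87 in N2 allantoin and from 6.88 to 6.90 in eat-2 vehicle. Precision is limited with 3 arrays a group. Of 22625 probe sets 77 controls were left out, and 22548 were tested. Groups came from the sample titles. The main test was limma 3.58.1 (lmFit and eBayes, R 4.3.3) on the 6 arrays of both groups, N2 allantoin minus eat-2 vehicle, with no covariate. Genes were named from the platform annotation: 20766 probe sets had 1 symbol, 887 several and 895 none. For lists, each gene was given by its probe set with the highest mean. The 12 genes furthest in each direction among those that passed with no overlap were all plotted, 1 point per array. The text names only some of them, and up to 3 members per list and direction. Genes that were plotted but not mentioned in the text are included in the counts of named probe sets. Pathway genes picked beyond these are examples chosen after their values were seen. The members and lists were chosen with earlier results of these data known. The script was tested on simulated data, where 25 of 50 probe sets changed by 1.5-fold passed, and 41 of 50 changed by 2-fold. Unchanged probe sets passed in 7 cases. The simulation changed only 50 of 22548 probe sets at each fold, while 21.5% passed in the data, so its rates need not hold there. Changes under 1.5-fold were not simulated. Alternatives were all 15 arrays, array weights, other scalings, a replicate block, an unmoderated test, and each array left out.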

Additional observations from a re-analysis of the deposited data

How the results depend on the processing

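With 3 arrays a group, the number of passing probe sets depended on how the spread was estimated. None of the 157 named probe sets that passed changed sign under the alternatives run. Sign changes of named probe sets that had not passed were not counted. Against 4839 passing (2692 higher and 2147 lower in N2 allantoin), a fit over all 15 arrays gave 2083 (1082 and 1001), array weights 8322 (4500 and 3822) and an unmoderated test 2438 (1445 and 993). Leaving out 1 array gave 2518, without N2 allantoin array 1, to 5167, without eat-2 vehicle array 2, with 2550 without N2 allantoin array 2 and 2971 without eat-2 vehicle array 3. The higher count then ran from 1360 to 2735 and the lower from 1143 to 2432. Without one array, rapamycin arrays included, 414 to 873 probe sets passed in the same direction on rapamycin and 1563 to 3110 in the opposite. The share nearer to N2 allantoin was 64.7% with N2 vehicle array 1 alone. Cyclic loess gave 4501 and median centring 5124, with 48.7% and 64.5% of calls higher against 55.6%, so cyclic loess put the larger number of calls on the lower side. With the replicate number as a block 4268 passed, 3970 of them shared. Over all probe sets, same-numbered arrays did not deviate together (correlations of -0.0635, -0.0988 and 0.0283). The labels give the replicate only as a number, and a batch shared by part of the genes was not tested. The cause of the shifts in these counts was not tested. The 157 named probe sets that passed kept their call in 2062 cases of a gene and a setting and lost it in 289, and named probe sets that had not passed did so in 52 cases.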

Other observations

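The gene families below were grouped by name after their values were seen, and they carry no test. The F-box genes of the fbxb family, which in worms serve as adaptors of ubiquitin ligases, were higher in N2 allantoin in 65 of 95 cases (68.4%) and lower in none, with a median difference of 0.67. Their median differences from N2 vehicle were 1.09 for N2 allantoin and 0.29 for eat-2 vehicle, and the median strain difference on rapamycin was -1.63. The related fbxc family had 18 higher and 2 lower of 44. Genes of the mitochondrial ribosome were also higher, 14 of 34 of the large subunit and 9 of 25 of the small, and none was lower. After cyclic loess 8 of the large subunit genes passed, while 67 of the fbxb genes did.

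In the other direction, the transthyretin-related genes (ttr) were lower in 14 and higher in 4 of 40, and the nssp genes in 12 and 1 of 43. Saposin-like genes were lower in 11 of 18 and higher in 1, with a median of -0.63.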
